A study of Drosophila melanogaster with 14 samples.

Results

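Both mutants together were compared with wild type in the PDF+ LNvs of the *Drosophila* brain, ventral lateral neurons of the circadian clock named for their neuropeptide PDF. The comparison took in all 14 libraries of the series, 8 from the mutants and 6 from wild type, with day or night as a term in the fit. The 8 mutant libraries were 4 of *Atx2* KD, in which an RNAi line of the KK collection against *Atx2* was driven in the PDF+ neurons, and 4 of *tyf(e)*, a loss-of-function allele of *tyf* carried by the whole animal, so that cells other than LNvs are mutant too. *Atx2* KD was sampled at ZT0 and ZT12 and *tyf(e)* at ZT4 and ZT16, with 2 libraries for each time, where ZT is the hours since lights on. Wild type was sampled at ZT2, ZT4, ZT12, ZT14 and ZT16 and at a time labelled ZT24, with 1 library each. All flies are labelled as females of strain *w1118*, and their LNvs were marked by Pdf>mGFP for sorting. According to the paper, all were raised on regular food and then aged on sucrose-yeast food until dissection, at the same temperature. The tag HC25 stands in the titles of the wild-type libraries and not in those of the mutants. The RNA of the sorted cells was amplified before sequencing. No label ties a mutant library to a wild-type library by culture or sorting day, so strain background, batch and genotype cannot be told apart in what both mutants share. Nothing says whether libraries came from separate cultures, so the p-values measure the spread between these samples only.

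ATX2 and TYF are proteins of the same complex. In LNvs they hold the translation of the clock protein PERIOD (PER) at a high level, and flies that lack either have weak behavioral rhythms. In the clock itself, CLOCK (CLK) and CYCLE (CYC) turn on *per*, *timeless* (*tim*), *vrille* (*vri*) and *Pdp1*. PER and TIM then block CLK and CYC, while VRI and PDP1 act on the transcription of *Clk*.

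The targeted genes were checked first. *Atx2* had 335.3 and 461.8 normalized counts in the *Atx2* KD libraries of ZT0 and 209.8 and 339.2 in those of ZT12. Wild type ranged from 1192 to 2320 with a median of 1811, and *tyf(e)* from 1536 to 1823. All 4 *Atx2* KD libraries thus lay below all others. *tyf* had 665.8 and 683.3 normalized counts in *tyf(e)* at ZT4 and 351.5 and 466.3 at ZT16, against 3197 to 9709 in wild type (median 5383) and 1953 to 8357 in *Atx2* KD. *tyf* in both *Atx2* KD libraries of ZT0 (1953 and 2364) was also below all of wild type, though above all of *tyf(e)*. Neither gene passed the threshold in the pooled comparison, where *Atx2* had a log2 fold change of -0.82 ± 0.45 (SE, adjusted p = 0.244 from edgeR) and *tyf* one of -1.38 ± 0.64 (SE, adjusted p = 0.170). The difference of *Atx2* KD minus *tyf(e)* was past it, at -2.34 for *Atx2* (adjusted p = 1.4e-05) and 3.07 for *tyf* (adjusted p = 0.0021). *CrebA*, the transcription factor of the secretory pathway, ranged from 1573 to 4657 in the mutants and from 1199 to 5997 in wild type, with a pooled log2 fold change of -0.16 ± 0.30 (SE, adjusted p = 0.772). By day it was -0.74 ± 0.37 (SE, adjusted p = 0.308) and by night 0.46 ± 0.37 (SE, adjusted p = 0.551), and the difference had an unadjusted p of 0.038 (adjusted p = 1.0).

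Library depth ran from 5216112 to 23507263 estimated counts, with a median of 11130916 in the mutants and 9106834 in wild type. On the principal component with the most variance (21.51%), all 6 wild-type libraries scored between 32.32 and 54.29 and all 8 mutant libraries between -47.83 and -19.35. The next component (16.19%) held all *Atx2* KD libraries between 37.53 and 52.12 and all *tyf(e)* libraries between -50.89 and -29.30, with wild type between. Wild-type libraries and mutant libraries therefore stood apart over the transcriptome as a whole.

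Of 9140 genes tested, 1220 (13.3%) differed between the mutants and wild type at an adjusted p under 0.05. Of these, 688 (7.53% of tested genes) were higher in the mutants and 532 (5.82%) lower. The change was at least 2-fold for 271 of the higher and 208 of the lower genes, and the median log2 fold change was 0.86 among the higher and -0.83 among the lower. Every mutant library was above or below every wild-type library for 388 genes (4.25%), with 200 higher (2.19%) and 188 lower (2.06%). Called genes that did not overlap in this way numbered 373 (4.08%), of which 190 were higher (2.08%) and 183 lower (2%). The change differed between *Atx2* KD and *tyf(e)* for 120 of the 1220 genes (9.84%), where it did so for 681 of all 9140 (7.45%). With scaling by library size only, 808 genes were called and only 236 of them (29.21%) were higher, against 56.39% with TMM. This scaling moved the median of all tested genes from 0.02 to -0.11 on the log2 scale, and scaling by library size without the abundant genes *trol*, *fmt* and *Pdf* called 1179 genes, 46.23% of them higher.

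Large rises were ranked among genes that were called, did not overlap and had a median of at least 50 normalized counts in the mutants. The 12 with the largest change were *Ada1-1*, *Unc-115b*, *mthl8*, *CG13318*, *BBS9*, *Cp7Fb*, *tut*, *Hsp70Bbb*, *Cht6*, *bdl*, *Fife* and *TkR99D*. *Fife* (FBgn0264606, chromosome 3L from 2655415 to 2711690), which encodes a protein of the presynaptic active zone, was the most abundant of them. It ran from 3893 to 5715 normalized counts in the mutants, with a median of 4914, and from 298.4 to 670.9 in wild type, with a median of 559. The lowest mutant library was thus far above the highest wild-type library. Its log2 fold change was 3.18 ± 0.19 (SE, adjusted p = 1.1e-07), with 3.22 in *Atx2* KD and 3.14 in *tyf(e)*. *mthl8* (chromosome 3L from 22428 to 26308), a receptor gene of the Methuselah family, ran from 158 to 549 in the mutants (median 271.7) and from 0 to 2.51 in wild type (median 1.011). No wild-type library held more than 3 counts of it, which makes it at least 60.8-fold higher in the mutants when their median is set against the highest wild-type floor of 3 counts (4.47 normalized counts). *mthl8* was higher in *tyf(e)* than in *Atx2* KD, by -1.38 as *Atx2* KD minus *tyf(e)* (adjusted p = 0.0033). *bdl*, which encodes a cell adhesion protein of the immunoglobulin family, ran from 247.5 to 864.3 in the mutants and from 8.94 to 85.7 in wild type (log2 fold change 3.57, adjusted p = 2.2e-05). *Hsp70Bbb*, a copy of the stress-induced chaperone Hsp70, ran from 286 to 2519 against 41.7 to 187.8 (log2 fold change 3.74, adjusted p = 1.0e-04). *Cht6*, a chitinase gene, ran from 70.5 to 1138 against 12.5 to 47.1, and *TkR99D*, a tachykinin receptor gene, from 31.3 to 234.9 against 6.81 to 29.8.

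*BBS9*, a Bardet-Biedl syndrome gene linked to cilia, ran from 45.6 to 502.8 in the mutants and from 0 to 7.76 in wild type (log2 fold change 6.39, adjusted p = 6.0e-05). *CG13318* and *Ada1-1*, which encodes a subunit of the SAGA complex, were almost unread in wild type. *Ada1-1* had no count in any wild-type library and a median of 60.2 in the mutants, at least 13.5-fold higher, and *CG13318* was at least 11.5-fold higher (51.3 against a wild-type maximum of 1.33). *tut*, a gene of germ cell differentiation, ran from 30.1 to 103.1 against 0 to 13.6. *Cp7Fb*, a chorion gene, ran from 19.7 to 329.9 against 0.57 to 15.97 and was higher in *Atx2* KD than in *tyf(e)* by 2.76 (adjusted p = 0.0046).

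Of these genes, 3 have near-identical copies or overlapping neighbors between which estimated counts can be split. *Unc-115b*, an actin-binding protein gene, ran from 159.5 to 2265 in the mutants (median 699.3) and from 0 to 10.7 in wild type (median 0). It shares 90.8% of its exonic bases with *p24-2* or *CG18542*, and its copy *Unc-115a* fell, from 2112 to 4311 in wild type to 768.6 to 1664 in the mutants (log2 fold change -1.51, adjusted p = 7.7e-06). Summed over both copies, the mutants ran from 1160 to 3752 and wild type from 2115 to 4311. The sum of *Ada1-1* and *Ada1-2* ran from 66.9 to 138.7 in the mutants and from 37.6 to 137.1 in wild type. The 6 Hsp70 copies together ran from 8650 to 28682 against 9722 to 15695. For all 3 sums the groups overlapped, so the single copies are uncertain.

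**Figure D1:**
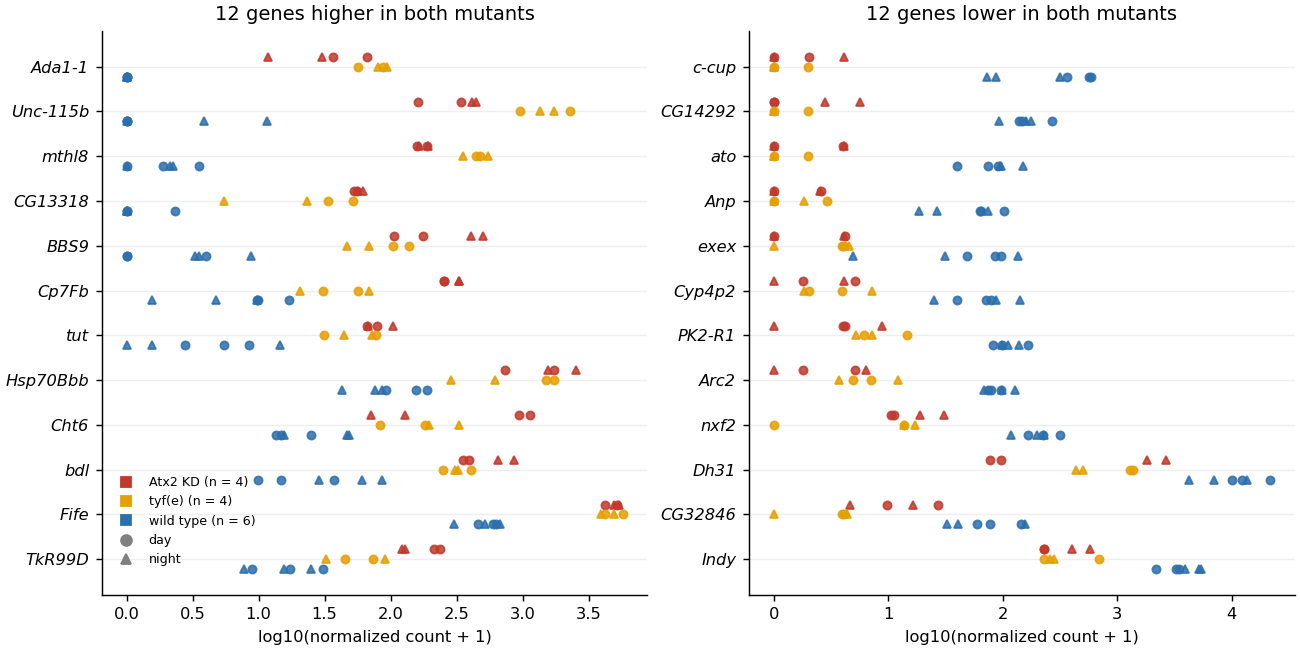
Normalized count in each library, as log10(count + 1) on the x axis, for 12 higher genes (left) and 12 lower genes (right). They had the largest pooled log2 fold change among called genes without overlap and with a median of at least 50 in the higher group. Each point is 1 library, with color for genotype, circles for day and triangles for night. All *Fife* points of the mutants lie between 3893 and 5715 and those of wild type between 298.4 and 670.9, while *c-cup* was at 3.10 or less in every mutant library.

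Large falls were ranked among genes that were called, did not overlap and had a median of at least 50 normalized counts in wild type. The 12 with the largest change were *c-cup*, *CG14292*, *ato*, *Anp*, *exex*, *Cyp4p2*, *PK2-R1*, *Arc2*, *nxf2*, *Dh31*, *CG32846* and *Indy*. For 4 of them, no mutant library held more than 3 counts and no wild-type library fewer than 10. *c-cup* (chromosome 2L from 1831627 to 1832565) ran from 72.1 to 589.4 normalized counts in wild type, with a median of 338.8, and from 0 to 3.10 in the mutants, with a median of 0. It was at least 62.4-fold lower against the highest mutant floor (5.43 normalized counts). *CG14292* ran from 92.3 to 266.8 in wild type and was at least 27.99-fold lower. *ato*, which encodes the proneural factor Atonal, ran from 38.7 to 148.3 and was at least 16.96-fold lower, and *Anp*, the gene of the antibacterial peptide andropin, ran from 17.7 to 100.7 and was at least 11.7-fold lower. Adjusted p-values of these 4 were between 2.4e-07 and 2.7e-05. Only *mthl8* and *CG11164* showed the reverse, with at most 3 counts in each wild-type library and at least 10 in each mutant library. *CG11164* was singled out after its values were seen and ran from 8.51 to 56.1 against 0 to 4.47 (adjusted p = 0.0024).

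*Indy* (chromosome 3L from 18828632 to 18846267), which encodes a transporter of citrate, ran from 2172 to 5457 in wild type (median 3709) and from 227.1 to 690.1 in the mutants (median 269). Its log2 fold change was -3.40 ± 0.29 (SE, adjusted p = 3.2e-06), with -3.47 in *Atx2* KD and -3.33 in *tyf(e)*. *Dh31*, a neuropeptide gene, ran from 4222 to 21565 in wild type (median 11203) and from 76.2 to 2659 in the mutants (median 894.9), with a log2 fold change of -3.53 ± 0.69 (SE, adjusted p = 0.0036). Within the mutants, *Dh31* was lowest in *Atx2* KD at ZT0, with 94.8 and 76.2, and highest in *Atx2* KD at ZT12, with 2659 and 1822. *PK2-R1*, a pyrokinin receptor gene, ran from 82.1 to 166.9 in wild type and from 0 to 13.6 in the mutants (log2 fold change -4.37, adjusted p = 1.3e-05). *exex*, a homeobox gene of motor neuron fate, ran from 3.97 to 135.7 against 0 to 3.58, so the groups were separated by little at their edges. *nxf2*, a gene of the piRNA pathway, ran from 116.3 to 318.1 against 0 to 29.4, and 22% of its exonic bases are shared with *mbf1* or an annotated transposon. *CG32846* ran from 31.6 to 157.1 against 0 to 26.5. The 24 genes named as the largest changes were chosen as called and without overlap, which by itself favors keeping a call in other fits. Each kept its call with any 1 library left out, with library size scaling and with a trend with transcript length removed. With day libraries only, *Cp7Fb*, *TkR99D*, *Dh31* and *CG32846* lost it, and with night libraries only *tut*, *Cht6*, *Dh31* and *CG32846*, with adjusted p-values between 0.0565 and 0.0702.

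The most abundant genes that were called and did not overlap changed less. *14-3-3zeta*, which encodes an adaptor that binds phosphorylated proteins, ran from 15151 to 21839 in the mutants (median 17680) and from 28903 to 34920 in wild type (median 34167), a log2 fold change of -0.86 ± 0.12 (SE, adjusted p = 0.00031). *CycG*, a G-type cyclin gene, ran from 9381 to 14416 against 7245 to 8831 (log2 fold change 0.46, adjusted p = 0.014). The other 3 were the ribosomal protein genes *RpL41*, *RpL7A* and *RpS16*, with log2 fold changes of 0.90, 0.71 and 0.73. With library size scaling *CycG*, *RpL7A* and *RpS16* were not called (adjusted p = 0.133, 0.0505 and 0.0601), and with a length trend removed *RpL41* was at 0.08 (adjusted p = 0.749).

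Of 22 core clock genes, from the transcription factors to the kinases, phosphatases and ubiquitin ligases that act on PER and TIM, 0 were called in the pooled comparison by edgeR, against 13.3% of all genes, and their median log2 fold change was 0.00. DESeq2 called 0 as well, and 1 of the 22 had an unadjusted p under 0.05. That gene, named after its values were seen, was the PER kinase gene *dco*, at 0.39. Taken within day and within night in one fit, 221 genes (2.42%) differed by day and 287 (3.14%) by night. Effects by time were examined with a term for the interaction of mutant and day or night, which was past the threshold for 1 of 9140 genes (0.0109%), and 350 genes had an unadjusted p under 0.05. The gene was *vri* (chromosome 2L from 5288944 to 5311223), the repressor of *Clk*. By day, *vri* had 2713 and 1418 normalized counts in *Atx2* KD (ZT0), 2921 and 1927 in *tyf(e)* (ZT4), and 76.0 (ZT24), 144.2 (ZT2) and 67.0 (ZT4) in wild type. By night, it had 6147 and 6816 in *Atx2* KD (ZT12), 5051 and 4592 in *tyf(e)* (ZT16), and 7644 (ZT12), 9189 (ZT14) and 7089 (ZT16) in wild type. The mutant libraries were all above wild type by day and all below it by night. The log2 fold change of the mutants was 4.56 by day (standard error 0.35, adjusted p = 1.0e-05) and -0.50 by night (standard error 0.28, adjusted p = 0.369), a difference of -5.06 ± 0.43 (SE, adjusted p = 4.2e-05). *vri* kept its call for the interaction in all other fits of that term, where the difference ran from -5.51 to -4.85. The mutants and wild type were not sampled at the same set of times, and the pooled change of *vri* had an adjusted p of 0.219.

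*Pdp1* and *tim* had differences of -1.94 ± 0.56 (SE) and -1.75 ± 0.48 (SE) between night and day, both with an adjusted p of 1.0 and unadjusted p-values of 0.0035 and 0.0025. By day, the log2 fold change was 1.42 for *Pdp1* and 0.93 for *tim*, and by night -0.52 and -0.82. *Clk* ran from 1249 to 1855 in the mutants by day, where wild type ran from 2520 to 2645, and from 162.9 to 365.6 by night, where wild type ran from 101.8 to 445.4. Its difference between night and day was 0.91 (adjusted p = 1.0). *per* ran from 372.3 to 856.6 in the mutants and from 207.6 to 848.8 in wild type (pooled log2 fold change 0.25, adjusted p = 0.526). *cwo*, *cyc* and *cry* had pooled log2 fold changes of -0.12, 0.00 and -0.18, none past the threshold. After *vri*, the smallest p-values of the interaction belonged to *Pura*, *trus*, *2mit*, *ETHR* and *lmd*, all with an adjusted p of 0.915. *2mit*, a gene of a neuronal transmembrane protein, had log2 fold changes of 1.44 by day and 0.05 by night. *ETHR*, the ecdysis triggering hormone receptor gene, had -1.77 by day and 0.52 by night.

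**Figure D2:**
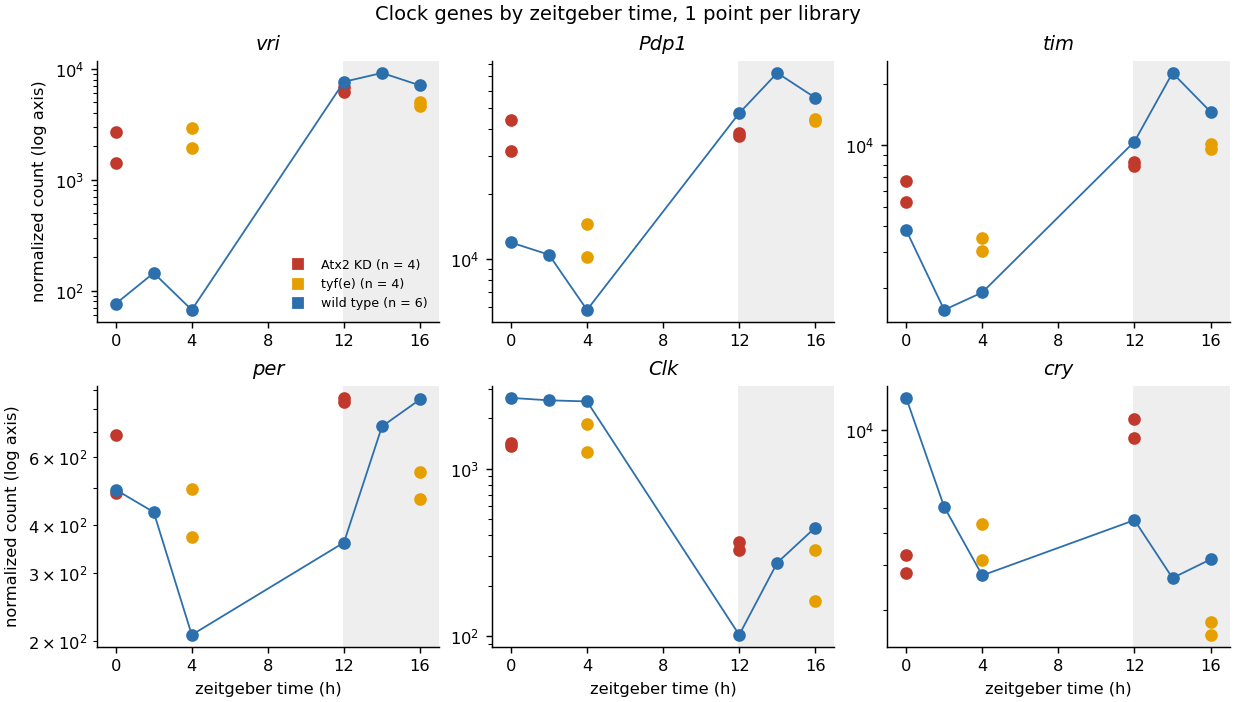
Normalized count (log axis) against zeitgeber time in hours for *vri*, *Pdp1*, *tim*, *per*, *Clk* and *cry*, with 1 point per library, the wild-type points joined by a line, night shaded and the library labelled ZT24 drawn at 0. *vri* lies between 1418 and 2921 in the mutants by day and between 67.0 and 144.2 in wild type.

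Among 15 tested genes of LNv peptides and peptide processing, 1 was higher and 2 were lower, against 7.53% and 5.82% of all tested genes. *Pdf*, the peptide by which LNvs synchronize the clock network, ran from 1006041 to 1610630 normalized counts in the mutants (median 1329313) and from 628373 to 1059487 in wild type (median 777007). The groups overlapped, and the log2 fold change was 0.75 ± 0.17 (SE, adjusted p = 0.0085), with 0.62 in *Atx2* KD and 0.87 in *tyf(e)*. With a length trend removed it was 0.38 (adjusted p = 0.150). *Pdf* alone took 9.78% to 15.2% of the estimated counts in the mutants and 6.80% to 10.2% in wild type. The lower genes were *Dh31* and *amon*, the gene of a prohormone convertase, at -0.80 (adjusted p = 0.048). *amon* lost its call in 10 of the 14 fits that left out 1 library, with an adjusted p of up to 0.121. *Pdfr*, the PDF receptor gene, had a pooled log2 fold change of 1.42 (adjusted p = 0.058). It ran from 1855 to 24712 in the mutants, with 22538 and 24712 in *Atx2* KD at ZT12, and the change was larger in *Atx2* KD than in *tyf(e)* by 1.76 (adjusted p = 0.030).

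Of 31 monoamine and peptide receptor genes, 5 were higher and 2 lower, against 7.53% and 5.82% of all tested genes, with a median log2 fold change of 0.25. *Octbeta3R*, an octopamine receptor gene, ran from 365.6 to 664.6 in the mutants and from 258 to 326 in wild type (log2 fold change 0.68, adjusted p = 0.0034). *AstC-R1*, an allatostatin C receptor gene, ran from 24.8 to 248.6 against 11.1 to 32.0 (log2 fold change 2.66, adjusted p = 0.0036) and was higher in *tyf(e)* than in *Atx2* KD. *AstA-R2*, an allatostatin A receptor gene, held 3 counts or fewer in all mutant libraries and ran from 0 to 178.1 in wild type with a median of 80.5, at least 14.8-fold lower between medians, with overlap between the groups. The other called members, named after their values were seen, were *TkR99D*, *Dop1R1* and *SPR*, which were higher, and *sNPF-R*, which was lower.

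Of 30 synaptic vesicle and release genes, 8 were lower and 0 higher by edgeR, against 5.82% and 7.53% of all tested genes, DESeq2 called 9 lower and 0 higher, 15 had an unadjusted p under 0.05 and were lower, with 0 higher, and the median of the list was -0.29 where that of all genes was 0.02. *Rab3*, the vesicle GTPase gene, ran from 1679 to 2520 in the mutants (median 2297) and from 4801 to 7849 in wild type (median 5862). Its log2 fold change was -1.44 ± 0.14 (SE, adjusted p = 1.3e-05), with -1.38 in *Atx2* KD and -1.51 in *tyf(e)*. *Rop*, the fly Munc18, ran from 595.8 to 816.4 against 1085 to 1419 (log2 fold change -0.90, adjusted p = 0.00012), and *comt*, the fly NSF, from 671 to 1008 against 1106 to 1530 (log2 fold change -0.70, adjusted p = 0.0037). *VAChT*, the vesicular acetylcholine transporter gene, ran from 62.2 to 258.2 against 469.4 to 925.8 (log2 fold change -2.35, adjusted p = 9.7e-05). *ChAT*, which makes acetylcholine and shares 15.1% of its exonic bases with *VAChT*, was also lower, from 39.8 to 474.3 against 600.7 to 1055 (log2 fold change -2.08, adjusted p = 0.0029). The other 4, named after their values were seen, were *Syn*, *Synj*, *Snap25* and *lap*, with log2 fold changes between -0.72 and -0.51. The direction of the list was the same with library size scaling, which called 11 lower and 0 higher, and when a length trend was removed (7 lower).

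Of 21 potassium channel genes, whose log2 fold changes ran from -1.65 to 2.81, only *Shab* was called, against 13.3% of all genes. It ran from 913.8 to 2437 in the mutants and from 1426 to 4183 in wild type (log2 fold change -0.83, adjusted p = 0.026). Of 14 sodium, calcium and leak channel genes 3 were called. *Ca-beta* and *stj*, both subunits of calcium channels, were lower (log2 fold changes -0.68 and -0.48), and the T-type channel gene *Ca-alpha1T* was higher (0.67). *Shab* lost its call in 4, *stj* in 2, *Ca-beta* in 1 and *Ca-alpha1T* in 10 of the 14 fits that left out 1 library, all with an adjusted p of 0.117 or less. Of 24 fast transmitter receptor genes, *GluRIB* (0.86, adjusted p = 0.0037) and *nAChRalpha3* (1.02, adjusted p = 0.011) were higher and *nAChRalpha7* lower (-0.94, adjusted p = 0.015). Of 8 genes known as activity-regulated in fly neurons, *Arc1* and *Arc2*, neighboring genes of the Arc capsid family, were lower. *Arc1* ran from 58.6 to 9700 in wild type, with 58.6 in the library of ZT4, and from 1.81 to 75.7 in the mutants (log2 fold change -6.75, standard error 0.97, adjusted p = 0.00041). *Arc2* ran from 67.0 to 126.5 against 0 to 11.1 and did not overlap.

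Of the 22 gene lists, that of the ribosome held the most genes that rose. Of 88 cytosolic ribosomal protein genes tested, 56 were higher and 1 was lower, against 7.53% and 5.82% of all tested genes, 84 had a positive log2 fold change and the median was 0.63. *RpL23* ran from 5910 to 10196 in the mutants (median 8520) and from 2468 to 4764 in wild type (median 3352), a log2 fold change of 1.25 ± 0.17 (SE, adjusted p = 0.00030). *RpS18* ran from 6603 to 9574 against 3435 to 5056 (log2 fold change 0.94), and *RpS3* from 6928 to 10515 against 3874 to 4921 (log2 fold change 0.85), and neither overlapped. The lower gene was *RpS15Ab* (-1.52, adjusted p = 0.00024), a copy of *RpS15Aa*, and the sum of both ran from 7068 to 9583 in the mutants and from 5801 to 7783 in wild type. Of 73 mitochondrial ribosomal protein genes, 16 were higher and 1, *mRpS5*, lower (median 0.39), and of 72 nuclear-encoded respiratory chain genes, 18 were higher and 0 lower (median 0.43; 0 lower also by DESeq2 and at an unadjusted p under 0.05). *mRpS21* rose by a log2 fold change of 1.76 (135.1 to 349.6 against 46.4 to 127.0, with 48.0% of its exonic bases shared with *CG8870*), *ND-18*, of complex I, by 1.43 (345 to 671.1 against 128.7 to 284.6), and *ATPsynCF6*, of the ATP synthase, by 0.99 (2771 to 5065 against 1174 to 2478).

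The 3 lists hold short transcripts, and among other genes the change moved with transcript length. Their median effective lengths were 622, 691 and 654 bases, where that of all tested genes was 1963. Outside the 3 lists, the 253 genes of up to 500 bases had a median log2 fold change of 0.66, the 541 genes of 500 to 750 bases one of 0.30, the 684 of 750 to 1000 bases one of 0.14, and the 1829 of 2000 to 3000 bases one of -0.09. The same order held in *Atx2* KD (0.605, 0.29, 0.15 and -0.12) and in *tyf(e)* (0.50, 0.24, 0.10 and -0.08), which share their wild-type libraries. Outside the 3 lists, the pooled median was 0.01 for the 955 genes of 4000 to 6000 bases and 0.02 for the 602 longer genes. The cytosolic ribosomal protein genes did not fall step by step with length. Their medians were 0.63 for the 17 of up to 500 bases, 0.67 for the 46 of 500 to 750, 0.48 for the 18 of 750 to 1000 and 0.71 for the 7 of 1000 to 1500 bases, where the 1583 other genes of that length had a median of 0.02. When a smooth trend with length was removed from each library, an alternative chosen after seeing the data, 25 of the 88 cytosolic ribosomal protein genes were higher and 4 lower, with a median of 0.26. That step left 5 of the 73 mitochondrial ribosomal and 4 of the 72 respiratory chain genes higher, with medians of 0.09 and 0.08. Library size scaling called 17, 4 and 2 of the 3 lists higher. Leaving out the wild-type library of ZT2 or that of ZT14 brought the mitochondrial ribosomal count from 16 to 9 or 10. The respiratory chain count of 18 fell to 11 without *Atx2* KD replicate 2 of ZT0 and to 7, 9, 8 and 11 without the wild-type libraries of ZT2, ZT4, ZT14 and ZT16. By TPM, in which each transcript is scaled by its length, the cytosolic ribosomal protein genes made up 13.1% to 16.7% of the total in the mutants and 10.5% to 15.8% in wild type, so the groups overlapped. Their summed normalized counts did not, at 533034 to 742728 in the mutants and 330107 to 496710 in wild type.

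**Figure D3:**
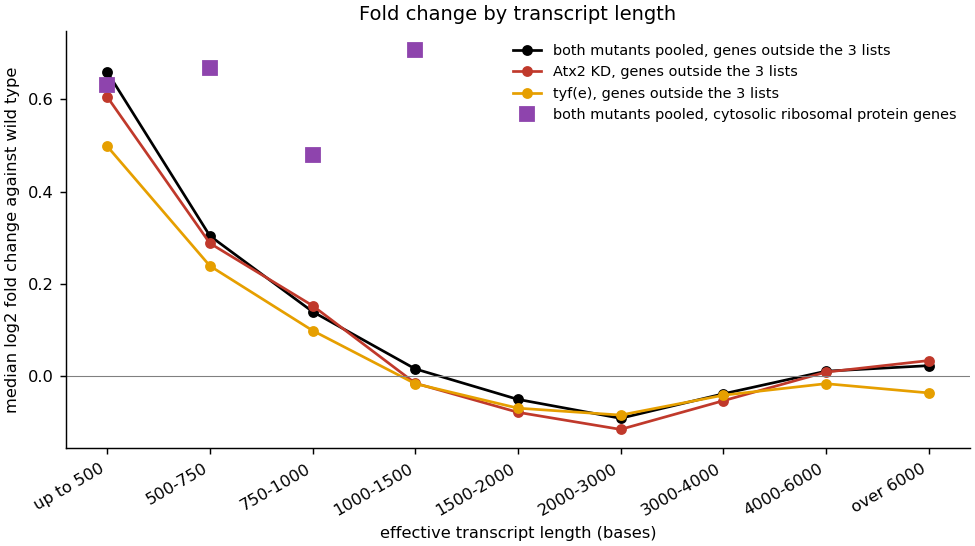
Median log2 fold change against wild type (y axis) in bins of effective transcript length in bases (x axis), for genes outside the cytosolic ribosomal, mitochondrial ribosomal and respiratory chain lists (lines) and for the cytosolic ribosomal protein genes (squares). The pooled median falls from 0.66 at up to 500 bases to -0.09 at 2000 to 3000 bases and is 0.02 over 6000 bases.

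Of 24 heat shock and chaperone genes, 5 were higher and 1 lower (median 0.40), where 7.53% of all tested genes were higher and 5.82% lower. Besides *Hsp70Bbb*, the small heat shock genes *Hsp22* (1064 to 3661 against 467.6 to 1098, log2 fold change 1.13) and *Hsp67Bc* (251.1 to 810.6 against 184.7 to 395.7, 0.83) were higher, *Hsp22* having all its exonic bases in common with *CG4456*. *Hsc70-1*, with 3 counts or fewer in each wild-type library and 1.81 to 26.9 normalized counts in the mutants, was at least 2.56-fold higher between medians, and the co-chaperone gene *stv* (log2 fold change 0.71) was also higher, and *Hsp70Bb* was lower (-0.47), the last 2 named after their values were seen. Of 37 cytochrome P450 genes, 2 were higher and 3 lower, and of 21 glutathione S-transferase genes 2 were higher and 1 lower, both near the 13.3% called among all genes. *Cyp4p1*, *Cyp4p2* and *Cyp4g1* were the lower ones. *Cyp4p2* ran from 24.03 to 139.6 in wild type and from 0 to 6.26 in the mutants, its copy *Cyp4p1* from 6.32 to 150.3 against 0 to 4.81. *Cyp28d1* was higher mainly in *tyf(e)*, with a log2 fold change of 5.41 against 0.64 in *Atx2* KD, and the other higher gene was *Cyp28a5* (3.33). Of the glutathione S-transferase genes, *GstS1* (130.7 to 419.9 against 27.2 to 99.9) and *GstO3* were higher and *GstD10* lower. Of 7 tested antimicrobial and immune recognition genes, *AttA* was higher (33.0 to 70.7 against 4.54 to 31.4, log2 fold change 1.67) and *CecA1* lower (0 to 4.09 against 3.79 to 41.4, log2 fold change -4.47). The antibacterial peptide gene *Anp*, named above and not on this list, was lower too (log2 fold change -6.03).

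**Figure D4:**
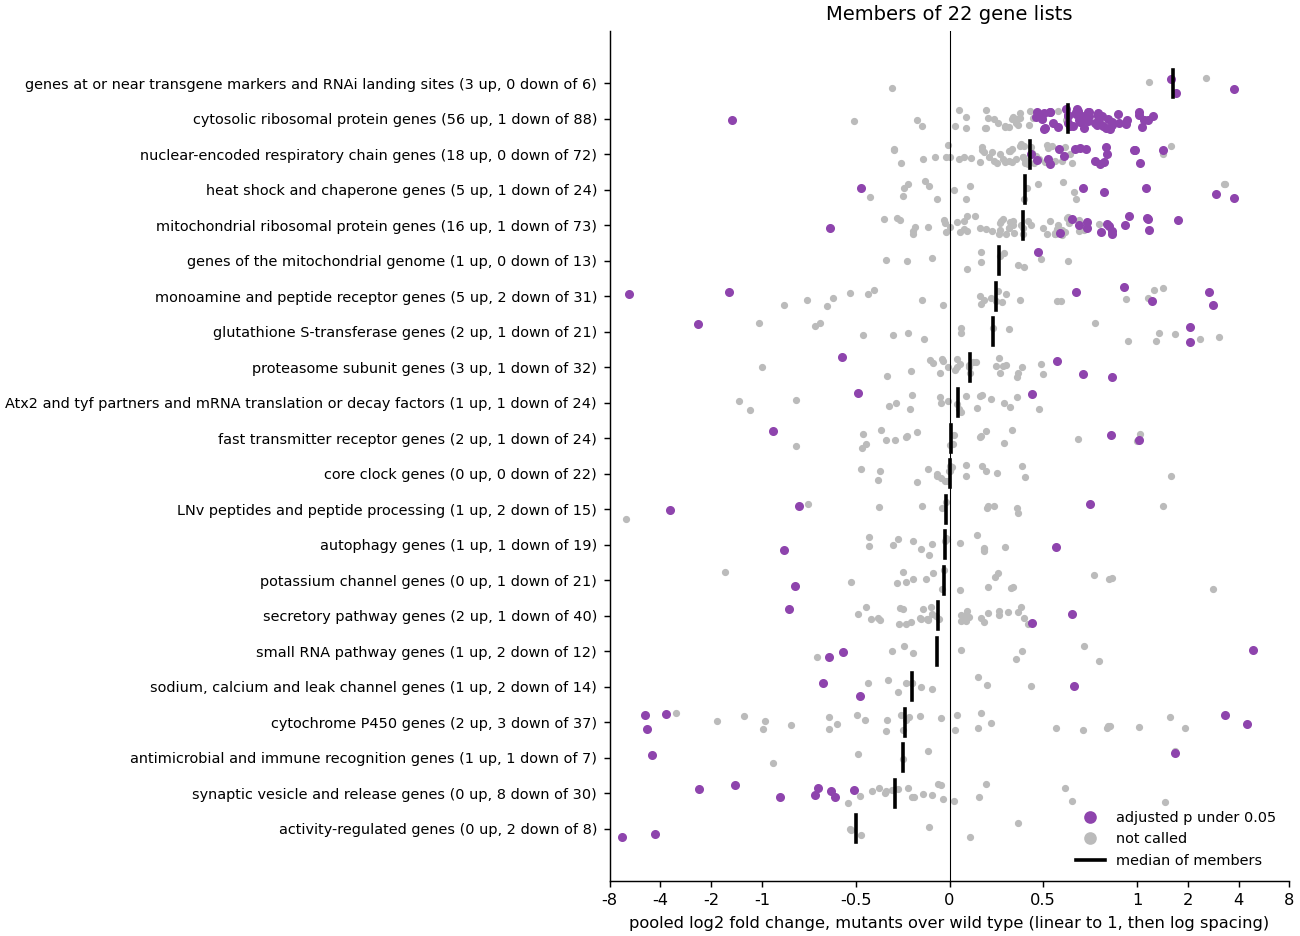
Pooled log2 fold change of the mutants over wild type (x axis, linear to 1 and logarithmic beyond) for the tested members of 22 gene lists (y axis, with the number called higher and lower of those tested). Each dot is 1 gene, purple where the adjusted p was under 0.05, and the black bar is the median. The cytosolic ribosomal protein genes have 56 higher of 88 and the synaptic vesicle and release genes 8 lower of 30.

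Of 24 partners of ATX2 and TYF and factors of mRNA translation or decay, 1 was higher and 1 lower, against 7.53% and 5.82% of all tested genes, and 4 differed between the mutants. *bel*, a DEAD-box helicase gene, was higher (1175 to 2067 against 821.1 to 1554, log2 fold change 0.44, adjusted p = 0.041), and *Pop2*, a deadenylase gene of the CCR4-NOT complex, was lower (387.2 to 588 against 555.5 to 852.2, log2 fold change -0.49, adjusted p = 0.020). *bel* lost its call in 10 of the 14 fits that left out 1 library (adjusted p up to 0.099) and *Pop2* without the wild-type library of ZT16 (adjusted p = 0.055). Of 12 small RNA pathway genes, *loqs* (513.2 to 930.8 against 882.4 to 1178, log2 fold change -0.57) and *AGO2* (416.3 to 926.3 against 728.1 to 1075, -0.65) were lower. *Dcr-2*, the Dicer of the RNAi pathway, was called higher, with all of the rise in *Atx2* KD. Of 32 proteasome genes, 4 were called, against 13.3% of all genes: *Prosbeta1*, *Prosbeta4* and *Prosbeta6* were higher (log2 fold changes 0.87, 0.71 and 0.57) and *Rpt5* lower (-0.57). Of 40 secretory pathway genes, *Cnx99A* and *epsilonCOP* were higher (0.44 and 0.65) and *Sec31* lower (-0.86, adjusted p = 0.0036). Of 19 autophagy genes, *Atg12* was higher (0.57, and -0.00 with a length trend removed) and *Atg10* lower (-0.88). *Rpt5* lost its call without the wild-type library of ZT4 or that of ZT16, *Cnx99A* without that of ZT12 or ZT14, *epsilonCOP* in 8 and *Atg10* in 7 of the 14 fits, with an adjusted p of at most 0.089.

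Of 6 tested genes that mark transgenes and insertion sites, *w*, *tsh* and *tio* were higher, where 7.53% of all tested genes were. The other 3, *y*, *f* and *Sb*, were not called, at log2 fold changes of 2.57, -0.31 and 1.17. *white* (*w*), the eye color gene that is mutant in *w1118* and serves as a marker in transgenes, ran from 1727 to 6611 in the mutants (median 2930) and from 901.8 to 1522 in wild type (median 1132). It did not overlap, with a log2 fold change of 1.58 ± 0.28 (SE, adjusted p = 0.0020), 1.29 in *Atx2* KD and 1.83 in *tyf(e)*. *tsh* and *tio*, which lie near each other on chromosome 2L, were high mainly in *Atx2* KD. *tsh* had 338.4, 284.6, 354.5 and 463.1 normalized counts in the 4 *Atx2* KD libraries, 15.6 to 26.0 in *tyf(e)* and 0 to 36.3 in wild type, and its change differed between the mutants by 4.11 (adjusted p = 0.0015). *tio* had a log2 fold change of 2.37 in *Atx2* KD and 0.44 in *tyf(e)*, and lost its pooled call (adjusted p = 0.034) in 10 of the 14 fits that left out 1 library, with an adjusted p of up to 0.081. *Dcr-2* had 11506, 10818, 10034 and 13425 normalized counts in *Atx2* KD, 62.2 to 130.7 in *tyf(e)* and 134.4 to 343.8 in wild type. Its pooled log2 fold change of 4.90 ± 1.27 (SE, adjusted p = 0.019) thus joined a rise of 5.90 in *Atx2* KD and a value of -1.02 in *tyf(e)*, and the difference between them was 6.92 (adjusted p = 8.7e-10).

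The labelled cell type was checked against marker genes. Over all tested genes, 7.53% were called higher and 5.82% lower. All 10 LNv clock neuron markers were tested, of which *Pdf* and *Mef2* (3283 to 4138 against 1697 to 3346, log2 fold change 0.55) were higher. *Mef2* lost its call without the wild-type library of ZT24, ZT4 or ZT12 (adjusted p up to 0.059). Of 6 pan-neuronal markers, 0 were called by edgeR or DESeq2 and 1 had an unadjusted p under 0.05. Of 8 tested glial markers, *Gat* (71.2 to 273.1 against 10.7 to 52.7, log2 fold change 2.67, adjusted p = 0.0012) and *Gs2* (37.98 to 2293 against 65.9 to 271.9, 2.73, adjusted p = 0.030) were higher. The 9 glial markers in the files summed to 16.8 to 42.2 TPM in *Atx2* KD, 127.5 to 313.7 in *tyf(e)* and 24.1 to 47.9 in wild type, so the sum was high in *tyf(e)* only. *Gat* was higher in *Atx2* KD too, with 71.2 to 106 normalized counts, all above wild type (log2 fold change 1.95, adjusted p = 0.0037). *Gs2* differed between the mutants by -3.76 (adjusted p = 0.00021), and lost its pooled call in 7 of the 14 fits that left out 1 library. The part of glial RNA in the other results was not tested, and fewer cells of a type cannot be told apart from less RNA per cell. Of 6 tested haemocyte markers, all with a positive log2 fold change, only *Col4a1* was called by edgeR, higher. The haemocyte markers summed to 75.1 to 105.4 TPM in *Atx2* KD, 38.6 to 58.0 in *tyf(e)* and 49.3 to 65.0 in wild type. Of 5 tested fat body markers, 2 had a positive log2 fold change (median -0.03) and only *apolpp* was called, higher. Their sums overlapped, at 11.6 to 115.2 TPM in the mutants and 8.43 to 112.5 in wild type. *Col4a1* and *apolpp* lost their calls in 11 and 10 of the 14 fits, with an adjusted p of up to 0.093. Of 11 tested markers of other neuron classes, 7 had a positive log2 fold change, and the median was 0.38. Only *VAChT* and *ChAT*, which share exonic bases, were called, both lower. The 12 photoreceptor, 5 muscle and 3 germ line markers tested held 0 calls by edgeR, while DESeq2 called 1, of the germ line, and 1, 0 and 2 of them had an unadjusted p under 0.05, with germ line sums of at most 37.9 TPM. No marker was at 0 in all libraries.

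The TMM factors ran from 0.7777 to 1.013 in *tyf(e)*, from 0.9583 to 1.168 in *Atx2* KD and from 0.9214 to 1.1721 in wild type. Scaling by library size leaves these factors out, which lowered mainly the values of *tyf(e)*. It ended the pooled call of 30 of the named genes, with adjusted p-values between 0.0505 and 0.231. No direction among these genes changed. Besides those given above, these were *bel*, *AGO2*, *Hsp22*, *Hsp67Bc*, *mRpL28*, *ND-51*, *COX5B*, *mt:CoII*, the 4 proteasome genes, *Cnx99A*, *epsilonCOP*, *stj*, *Ca-alpha1T*, *Octbeta3R*, *Atg12*, *Mef2*, *apolpp*, *Col4a1*, *tio* and, named after their values were seen, *Adh*, *Cp7Fa*, *CG9686*, *Dtg* and *CG42697*.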

How the data were processed

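LNvs were sorted, their RNA amplified and sequenced, and reads assigned to FlyBase transcripts with kallisto by the authors. They deposited for each transcript an estimated count, not normalized, and a TPM value, scaled by the authors for transcript length and depth. Of 30438 transcripts, 30191 matched a gene of Ensembl release 115, giving 13792 genes (build BDGP6). The 247 others, with 0.234% of the counts, were left out. The build of the transcripts was not used for coordinates, which are those of that annotation. Estimated counts were summed by gene and rounded. TPM served for list sums and shares only.

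All 14 libraries entered 1 quasi-likelihood fit in edgeR 4.0.16 (limma 3.58.1, R 4.3.3), scaled by TMM and filtered by the defaults of filterByExpr, with mutant and day or night as terms and Benjamini-Hochberg adjustment over the 9140 genes tested. Calls are at an adjusted p under 0.05. Further fits held the interaction of mutant and day or night, and *Atx2* KD and *tyf(e)* as separate terms. Normalized counts are counts divided by effective library size, scaled to its geometric mean. A floor of 3 counts corresponded to 1.33 to 5.43 normalized counts, and it covers counting error only.

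The alternatives were DESeq2 1.42.0, its size factors in edgeR, library size scaling, no filter, at least 10 counts in every library, an offset for transcript length, a replicate block, leaving out each library, and for the pooled effect the mean of both mutants, no term for day or night, each ZT as a level, wild type at the mutants' times, each mutant alone, and day or night alone. After seeing the data, 2 more were added: a length trend removed from each library, and a library size that leaves out *trol*, *fmt* and *Pdf*. The fits were checked on simulated data in which both mutants had the same effect. The check therefore did not cover genes whose change differs between the mutants. The members of the comparison and the 22 gene lists and 9 marker lists were chosen with earlier results of these data known.

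Genes were named by rule: *Atx2*, *tyf*, *CrebA*, *Pdf*, *Pdfr* and 8 clock genes, the check genes *w*, *tio*, *tsh* and *Dcr-2*, the 12 higher and 12 lower genes with the largest pooled change among those called, not overlapping and with a median of at least 50 normalized counts in the higher group, the 5 most abundant of those called and not overlapping, the 6 with the smallest interaction p, and up to 4 called members of each list, or all where 5 or fewer were called. Others are said to be named after their values were seen. Overlaps between exons of different genes were taken on either strand, as the strand of the reads is not given in the sources used here. Summaries used Python 3.11.15 with pandas 2.3.3 and numpy 2.4.6, and plots matplotlib 3.10.9.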

Additional observations from a re-analysis of the deposited data

Results flagged for a closer look

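Within the 8 mutant and the 6 wild-type libraries, 17 of 232 tests (7.33%) found 1 library far from the others of its group, where chance gives about 5%. In wild type, ZT24 stood apart for *cry* (13381 normalized counts), *ND-51* (1413) and *nAChRalpha3* (3076). ZT2 did so for *ChAT* (600.7). ZT4 did so for *CG13318* (1.331), *GstD10* (42.59), *epsilonCOP* (117.6) and *Gs2* (271.9). ZT12 did so for *Unc-115b* (10.66) and *Atg12* (226.9), and ZT16 for *Dcr-2* (343.8), *Cyp28d1* (23.26) and *Dtg* (40.28). Among the mutants, *Atx2* KD replicate 2 of ZT12 stood apart for *c-cup* (3.098) and *CG14292* (4.647), *tyf(e)* replicate 1 of ZT4 for *Hsp22* (3661) and *tyf(e)* replicate 2 of ZT16 for *cyc* (343.7).

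The effect of the mutants differed by night and by day for *vri* (-5.06 on the log2 scale, night minus day). The other 23 differences are log2 fold changes of *Atx2* KD minus *tyf(e)*, which do not use the wild-type libraries for their size. The mutants' own targets gave -2.34 (*Atx2*) and 3.07 (*tyf*). Genes higher in *Atx2* KD were *Pdfr* (1.76), *tio* (1.93), *tsh* (4.11), *Dcr-2* (6.92), *Cp7Fb* (2.76), *Cp7Fa* (3.18), *TkR99D* (1.49), *GstS1* (1.35), *GstO3* (2.28), *mRpL24* (0.78) and *Dtg* (4.21). Genes higher in *tyf(e)* were *Unc-115b* (-2.31), *mthl8* (-1.38), *Cyp28d1* (-4.76), *AstC-R1* (-1.64), *Gs2* (-3.76), *Col4a1* (-2.37), *Adh* (-3.35), *Msr-110* (-3.94), *CG9686* (-5.01) and *CG42697* (-4.56).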

How the results depend on the processing

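The pooled comparison called 1220 genes, 808 with library size scaling, 123 with day libraries only, 304 with night libraries only, and 835 to 1230 with 1 library left out. Fewer samples entered the day and night fits. The interaction called 1 gene, 3 with DESeq2 (*vri*, *MP1* and *Pura*) and 1 to 3 with 1 library left out (3 without wild type ZT12: *vri*, *MP1* and *CG34155*). The difference of *Atx2* KD and *tyf(e)* called 681 genes, 1025 with DESeq2, 1508 with library size scaling and 394 to 669 with 1 library left out. The lowest 4 counts were 394 and 398 without *Atx2* KD replicate 1 of ZT0 and of ZT12, and 411 without *Atx2* KD replicate 2 of ZT12 or *tyf(e)* replicate 1 of ZT16. Of the 1508 genes called with library size scaling, 86.67% were higher in *Atx2* KD, against 46.99% of the 681. That scaling moved the median difference of all tested genes from 0.01 to 0.36. For cytosolic ribosomal protein genes, the 56 higher became 17 with library size scaling, 37 with wild type at the mutants' times only, 0 by day, 16 by night, 25 with the length trend removed and 45 to 60 with 1 library left out. For mitochondrial ribosomal protein genes, the 16 became 4 with library size scaling, 5 with *tyf(e)* only, 1 by day, 4 by night, 5 with the length trend removed and 9 to 20 with 1 library left out. For respiratory chain genes, the 18 became 2 with library size scaling, 11 with each ZT as a level, 10 with wild type at the mutants' times only, 8 with *tyf(e)* only, 0 by day, 3 by night, 4 with the length trend removed and 7 to 23 with 1 library left out. The 8 lower synaptic genes became 1 by day, 4 by night and 6 to 9 with 1 library left out. The cause of these moves was not tested.

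Signs turned for a number of pooled changes that were not called. They also turned for genes that were called higher in the pooled comparison. These were *Dcr-2* (pooled log2 fold change 4.90), *CG9686* (3.50), *Dtg* (2.97), *Msr-110* (2.91), *Gs2* (2.73), *Adh* (2.28) and *Atg12* (0.57). With *Atx2* KD only, *CrebA* was at 0.01, *cry* at 0.311, *trus* at 0.104, *Gs2* at -0.184, *Adh* at -0.208, *Msr-110* at -0.166 and *CG9686* at -0.702. With *tyf(e)* only, *per* was at -0.078, *tim* at -0.123, *cyc* at 0.044, *Pdp1* at -0.013, *Dcr-2* at -1.047 (adjusted p = 0.0141 from edgeR) and *Dtg* at -0.146. By night, *CrebA* was at 0.463, *tim* at -0.823, *Clk* at 0.106, *cyc* at 0.175, *vri* at -0.496, *Pdp1* at -0.524, *cry* at 0.808 and *ETHR* at 0.564, and by day *Pura* was at 0.269 and *trus* at 0.622. With no term for day or night, *tim* was at -0.428, *cyc* at 0.012, *vri* at -0.032 and *Pdp1* at -0.044. *tim* was also at -0.138 with library size scaling, -0.065 when *trol*, *fmt* and *Pdf* were left out of it, -0.028 with no filter and -0.01 with at least 10 counts. *cwo* was at 0.034 with each ZT as a level and 0.031 with wild type at the mutants' times only. With the length trend removed, *cyc* was at 0.051 and *Atg12* at -0.002. *Pdf* differed between the mutants by 0.136 with library size scaling. With 1 library left out, *tim* ran from -0.246 to 0.273, *cyc* from -0.093 to 0.063, *cry* from -0.434 to 0.338 and *lmd* from -0.338 to 1.862.

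Libraries with the same replicate number did not deviate together (6 correlations between -0.093 and 0.05), so no pairing by number was seen. With 2 libraries for each mutant and time, this cannot exclude a shared culture or sorting day. A fit with the replicate number as a block called 1101 genes in the pooled comparison, 1 in the interaction (*vri* at -5.01) and 576 between the mutants, and 9 named genes lost a call. Depth limits low genes: a level of 3 counts or fewer cannot be told from 0, and 4652 genes were left out by the count filter.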

Other observations

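Of the 1220 called genes, 8 had opposite signs in the 2 mutants. Both mutants share their wild-type libraries and a pooled call favors equal signs, so this small number is no sign that the mutants agree. The 8 genes were named after their values were seen. *Dcr-2*, *Cp7Fa* and *Dtg* were high in *Atx2* KD alone, and *Gs2*, *Adh*, *Msr-110*, *CG9686* and *CG42697* in *tyf(e)* alone. *Adh*, the alcohol dehydrogenase gene, had log2 fold changes of -0.21 in *Atx2* KD and 3.14 in *tyf(e)*, and shares 93.9% of its exonic bases with *Adhr*. *Msr-110* had -0.12 and 3.81, *CG9686* -0.55 and 4.46, and *CG42697* -0.10 and 4.47. *Cp7Fa*, the neighbor of the chorion gene *Cp7Fb*, had 3.12 and -0.06, and *Dtg* had 3.99 and -0.22. Apart from *Dcr-2*, each lost its pooled call in 3 or more of the 14 fits that left out 1 library, with adjusted p-values of up to 0.259.

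The 13 genes of the mitochondrial genome had a median log2 fold change of 0.59 in *Atx2* KD and -0.43 in *tyf(e)*, both against the same wild-type libraries, and 7 of them (53.8%) differed between the mutants, against 7.45% of all tested genes. Their summed TPM ran from 150258 to 217444 in *Atx2* KD, from 84516 to 104976 in *tyf(e)* and from 126568 to 179864 in wild type. In the pooled comparison only *mt:CoII* was called (0.47, adjusted p = 0.047), and it lost its call in 12 of the 14 fits that left out 1 library.

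Calls of the pooled comparison were spread over the chromosomes, with 13.4% of tested genes called on 2L, 14.5% on 2R, 12.6% on 3L, 13.4% on 3R, 12.8% on 4 and 12.7% on X. Some called genes that neighbor a copy of their own family moved the same way, as *Arc1* and *Arc2*, *Cyp4p1* and *Cyp4p2*, and *Cp7Fa* and *Cp7Fb*. Opposite ways were taken by *Unc-115a* and *Unc-115b*, and also by the Hsp70 copies *Hsp70Bbb* (higher) and *Hsp70Bb* (lower). The glial gene *repo* ran from 1.55 to 60.3 normalized counts in the mutants and from 0 to 9.76 in wild type, with log2 fold changes of 0.24 in *Atx2* KD and 2.92 in *tyf(e)*, a difference of -2.68 (adjusted p = 0.044).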
